A study of Danio rerio with 4 samples.

Results

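The genes described here are those of vesicle trafficking and of the lysosome in the primordial germ cells of zebrafish embryos of the AB strain, sorted at 13 hours post fertilization on a germline EGFP signal. They were chosen by their names: rows of the authors' deposited gene table whose gene name begins like a Rab, Arf or Arl GTPase, a coat, adaptor, tether or SNARE gene, a lysosomal enzyme or proton pump gene, or an autophagy (atg) gene. This gave 53 of 2477 rows. The embryos had received a control morpholino or a morpholino against dead end, with 2 libraries in each group. Morpholinos are antisense molecules that keep a cell from using the RNA they pair with, and the dead end gene (dnd1) encodes a germ cell protein that binds RNA. The comparison asks what the reduction of Dead end does to the transcripts of these cells. No transgenic line beyond the EGFP signal, and no clutch, was named in the labels.

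Proteins bound for the cell surface enter the endoplasmic reticulum through the Sec61 channel, leave it in COPII-coated vesicles and cross the Golgi, while COPI coats carry material back. Endosomes sort what is taken up at the surface and pass part of it to the lysosome, an organelle whose hydrolases work in the acid made by a vacuolar proton pump. Autophagy brings the cell's own cytoplasm to the same organelle. Rab and Arf GTPases mark the membranes along these routes, and SNARE proteins fuse them.

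The authors' deposited table held 1 FPKM value per group and gene (sequenced fragments relative to transcript length and library size), so no spread between libraries can be given and the depth is unknown. It contained only rows with the authors' q under 0.05, and the smallest change among rows above 0 in both groups was 1.78-fold. Members of these families that are not in it were not analysed here. The 53 members thus all passed the authors' test, and what can be described is their direction, size and level. Of the 10 germ cell markers listed, 7 were in the authors' deposited table, all lower with the dead end morpholino. They included nanos3 (3543 and 906 FPKM in control and dead end) and ddx4 (904 and 318 FPKM), so germ cell RNA was present in both groups. Of listed markers of other cells, 5 of 11 hatching gland genes were in the table and all 5 were higher, with a summed level of 172 FPKM in controls and 669 FPKM with dead end morpholino. For the notochord, 6 of 14 were in the table, 5 higher and 1 lower (copb1, itself a member here), with sums of 203 and 508 FPKM. For the yolk layer, 3 of 10 were in the table, 2 higher and 1 lower (497 and 1275 FPKM), and of 11 macrophage genes none was in the table. Median changes in log2(FPKM + 1) were 2.56 for the hatching gland, 2.83 for the notochord and 1.35 for the yolk layer genes. Over all rows the median was 1.17, 64.96% were higher and the sum was 2.02-fold higher. The notochord sums hide larger rises, such as 7.05-fold for ta and 11.7-fold for noto, beside 2.03-fold for lamc1. The part of these other cells in the results below was not tested. In sorted bulk RNA, fewer germ cells in the sort and less RNA per germ cell cannot be told apart.

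Genes of the lysosome were mostly lower with the dead end morpholino, whereas genes of the secretory pathway were divided in about the proportion of all rows. Of 10 lysosomal members, 7 fell and 3 rose at the authors' q. With the rows matched by a reference name table added, 7 fell and 4 rose. The gene arl8a, for a GTPase that moves lysosomes, rose 2.65-fold but was counted as endosomal. Of all rows of the authors' deposited table, 35.04% were lower and 64.96% higher. Of 20 secretory members, 12 were higher and 8 lower, a share of 60.0% higher, slightly below that of all rows. Of 15 endosomal members, 11 were higher (73.3%) and 4 lower. The rows matched by the reference name table brought this to 11 higher and 6 lower, closer to the division of all rows. All 3 autophagy members were lower. The remaining 5 members, GTPase-related genes outside these routes, were split into 2 higher and 3 lower. Together 28 of 53 members were higher and 25 lower. At the authors' q under 0.01, 17 members were higher and 10 lower, beside 42.6% and 18.1% of all rows. The median change in log2(FPKM + 1) was -1.02 for lysosomal members, 1.15 for secretory members and 1.26 for endosomal members, beside 1.17 for all rows of the table. When changes were centred on that median of all rows, 9 of 10 lysosomal, 11 of 20 secretory and 7 of 15 endosomal members were lower, and 9 members in all turned from higher to lower. When both groups were scaled to the same summed FPKM over the table, no member changed direction. The sums differed 2.02-fold and the smallest rise of a member was 2.05-fold, so some rises became small. These sums cover only called rows, most of them higher, so the scaling is no correction for library size. Scaled in this way, the change in log2(FPKM + 1) was 0.023 for atp6v0ca and 0.037 for rab5aa.

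**Figure D1:**
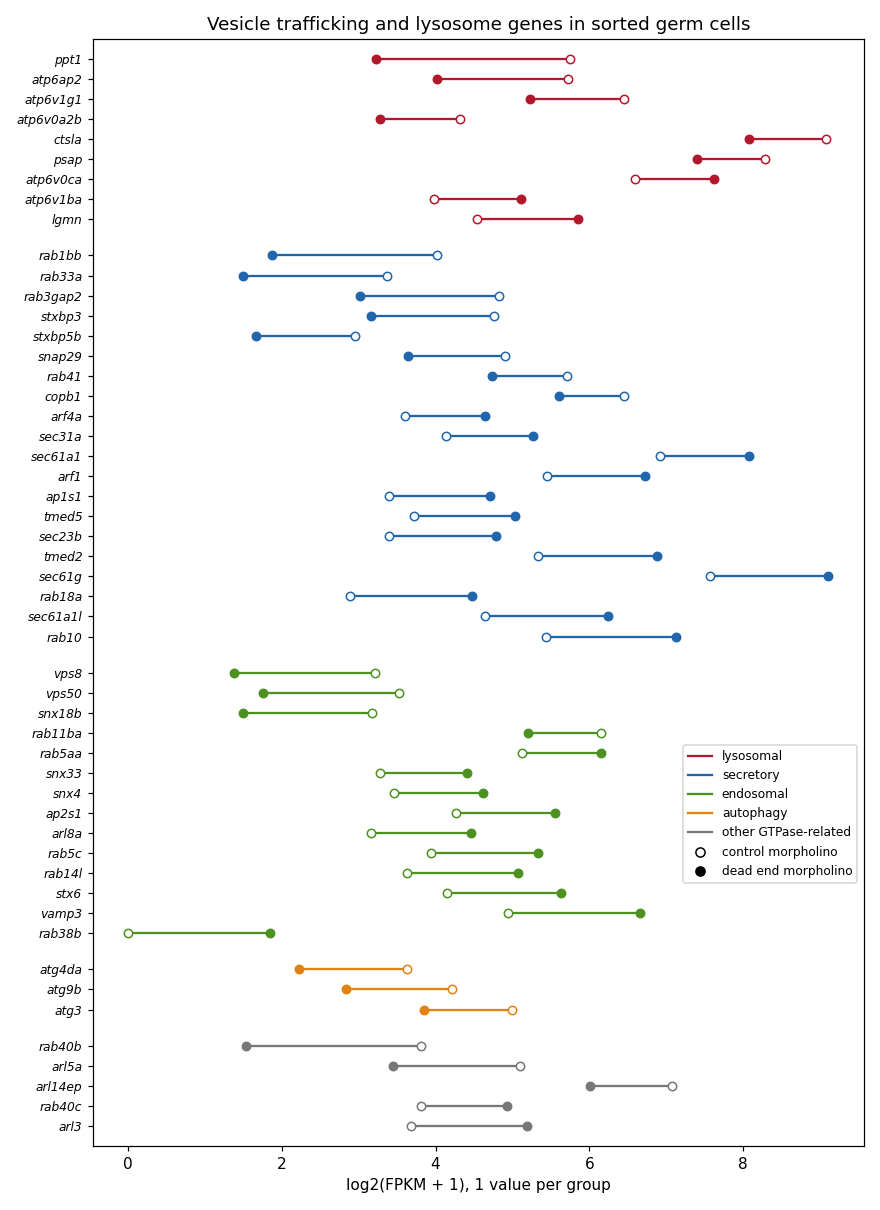
Level of 51 of the 53 members in log2(FPKM + 1) with the control morpholino (open circles) and the dead end morpholino (filled circles), 1 value per group from the authors' deposited table, coloured by branch and ordered by change within it. Most of the lysosomal members at the top move left, while the lower part of the secretory block moves right.

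Among the members, the changes were moderate in the upward direction. No member with both values above 0 rose 4-fold or more in the authors' deposited table, whereas 16.6% of all rows did. The largest rise among such members was 3.38-fold, for vamp3. Genes of these routes outside the naming pattern did rise by more than 4-fold: ctslb.4 (4.31-fold), ssr3 (4.84-fold) and kdelr2a (4.08-fold). In the downward direction 7 of 53 members fell by at least 4-fold, beside 9.57% of all rows: rab40b, ppt1, rab1bb, vps8, rab33a, vps50 and snx18b. The limit of 4-fold was chosen after the values were seen. A single member, rab38b, was listed at 0 in a group, as were 9.37% of all rows. Of these 7, all but ppt1 had control levels between 8.02 and 15.3 FPKM.

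Among the lysosomal enzymes, 4 of 5 members fell, where 35.04% of all rows were lower. The gene ppt1 (ENSDARG00000039980, chromosome 19, 44145086 to 44176179) encodes palmitoyl-protein thioesterase, which strips fatty acids from proteins being degraded. It stood at 52.8 FPKM in controls and at 8.37 FPKM with the dead end morpholino, a 6.31-fold fall (q = 0.00191) per the authors' deposited table. That was the largest fall of any lysosomal member, and ppt1 went from 10th to 40th in the order of level among the 53 members. Prosaposin, encoded by psap, is the precursor of the saposins, small proteins that help sphingolipid hydrolases reach their substrates. Its transcript fell from 312 to 168 FPKM (1.86-fold), with q = 0.0486 in the authors' deposited table, close to the limit of 0.05.

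Cathepsin L, a cysteine protease, is encoded by ctsla (ENSDARG00000007836, chromosome 5, 44054985 to 44243585). It was the most abundant member in controls, at 538 FPKM, and fell 2.00-fold to 269 FPKM (q = 0.0221) per the authors' deposited table. With psap in second place, the highest control levels of the whole set belonged to lysosomal genes that were lower with the dead end morpholino. The exception among the enzymes was lgmn, which encodes legumain, an asparaginyl protease known for processing cathepsins. It rose from 22.3 to 56.7 FPKM (2.54-fold, q = 0.00259) per the authors' deposited table. The locus given for ctsla spans 188601 bases, far more than most members, and the FPKM of a locus of this kind can take in neighbouring models. No member's locus overlapped that of another row in the table. Genes that were not called are absent from the table, so this cannot show whether a long locus takes in neighbouring genes.

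Subunits of the proton pump did not move together. The pump has a membrane sector that carries protons and a cytosolic sector that splits ATP, and each had members in both directions. In the membrane sector, the proteolipid ring gene atp6v0ca rose from 95.7 to 197 FPKM (2.05-fold, q = 0.0112), while atp6v0a2b, which encodes an a subunit, fell from 18.9 to 8.66 FPKM (2.18-fold, q = 0.0184) per the authors' deposited table. In the cytosolic sector, atp6v1ba for a B subunit rose from 14.7 to 33.4 FPKM (2.27-fold, q = 0.0184) and the stalk subunit gene atp6v1g1 fell from 86.5 to 36.4 FPKM (2.38-fold, q = 0.0142) per the authors' deposited table. Both subunit genes that rose turned to lower when changes were centred on the median of all rows. The accessory protein gene atp6ap2, also known as the prorenin receptor, fell the most of the 5, from 51.8 to 15.2 FPKM (3.40-fold, q = 0.00637) per the authors' deposited table. The pump thus gave 3 lower and 2 higher members, and the enzymes gave 4 lower and 1 higher, beside 35.04% of all rows lower.

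Outside the naming pattern, a list of 81 other lysosomal genes had 9 rows in the authors' deposited table, 7 lower and 2 higher. Of all rows, 35.04% were lower. The largest falls in log2(FPKM + 1) were in grna, which encodes a progranulin, a secreted protein also delivered to the lysosome, in tmem192, a lysosomal membrane protein gene, and in sumf1, whose product in the endoplasmic reticulum activates sulfatases. The levels in the authors' deposited table were 4.12 and 0.0755 FPKM for grna (q = 0.0228), 18.6 and 4.05 FPKM for tmem192 (q = 0.0474) and 22.8 and 5.51 FPKM for sumf1 (q = 0.0173). The locus given for grna, chromosome 3, 29783584 to 30022400, is also long. The falls included gnptab, for the enzyme that starts the mannose phosphate tag by which hydrolases are sorted to lysosomes, from 31.99 to 13.8 FPKM (2.32-fold, q = 0.0215) per the authors' deposited table. The carboxypeptidase gene scpep1 (52.0 and 18.5 FPKM) and the mannosidase gene manba (6.24 and 1.69 FPKM) were lower as well, and tmem55bb went from 2.40 FPKM to being listed at 0. The genes that rose were scarb2, for a lysosomal membrane protein (13.2 to 38.3 FPKM, 2.90-fold), and the calcium channel gene mcoln1a (3.83 to 10.3 FPKM, 2.70-fold).

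Every member of the Sec61, COPII and p24 groups rose, beside 64.96% of all rows, and the COPI gene fell. Across all rows that rose and were above 0 in both groups, the median rise was 2.96-fold. The 3 Sec61 channel members were all higher. The small subunit gene sec61g (ENSDARG00000018637, chromosome 24, 18142007 to 18302185) rose from 190 to 552 FPKM (2.91-fold, q = 0.00107) per the authors' deposited table and was the most abundant of the 53 members with the dead end morpholino, ahead of sec61a1 and ctsla. The pore subunit genes sec61a1 (120 to 270.1 FPKM, 2.25-fold) and sec61a1l (23.99 to 75.0 FPKM, 3.13-fold) rose with it, and these paralogs can share reads. Of these, sec61a1 lay just below the median change of all rows, and it turned to lower, with sec31a and arf4a, when changes were centred on that median. The locus given for sec61g spans 160179 bases, so the caution given for ctsla applies to it too.

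The COPII coat members were sec23b, for the inner coat, and sec31a, for the outer cage. The former rose from 9.53 to 26.7 FPKM (2.80-fold, q = 0.00489) and the latter from 16.6 to 37.6 FPKM (2.26-fold, q = 0.00722) per the authors' deposited table. Both p24 cargo receptor members, tmed2 (39.5 to 116 FPKM, 2.95-fold) and tmed5 (12.1 to 31.9 FPKM, 2.63-fold), rose too. The small subunit gene of the AP1 clathrin adaptor of the Golgi, ap1s1, rose from 9.54 to 25.2 FPKM (2.64-fold). Across these 8 genes of channel, COPII coat, cargo receptors and adaptor the rises lay between 2.25-fold and 3.13-fold. The COPI coat gene copb1 went the other way, from 86.9 to 47.7 FPKM (1.82-fold lower, q = 0.0405) per the authors' deposited table, the smallest change of any member.

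Of 87 other secretory genes listed, 8 were in the authors' deposited table, 6 higher and 2 lower, where 64.96% of all rows were higher. The largest rises were in ssr3, a subunit gene of the translocon-associated complex (42.2 to 204 FPKM, 4.84-fold), kdelr2a, for a receptor that returns escaped proteins to the endoplasmic reticulum (47.0 to 192 FPKM, 4.08-fold), and the cargo lectin gene lman2 (20.2 to 69.1 FPKM, 3.42-fold), each with q = 0.00107 in the authors' deposited table. The translocon partner gene tram1 rose 3.02-fold and the signal recognition particle receptor gene srpr rose 2.49-fold. The unfolded protein response factor gene xbp1, also a hatching gland marker, rose from 71.7 to 155 FPKM (2.16-fold, q = 0.00722) per the authors' deposited table. Against these, the cargo lectin gene lman1 fell from 74.8 to 31.7 FPKM (2.36-fold, q = 0.00588) and the Golgi tether gene golga5 from 62.3 to 27.6 FPKM (2.26-fold, q = 0.00534) per the authors' deposited table. The lectin genes lman1 and lman2 moved in opposite directions.

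**Figure D2:**
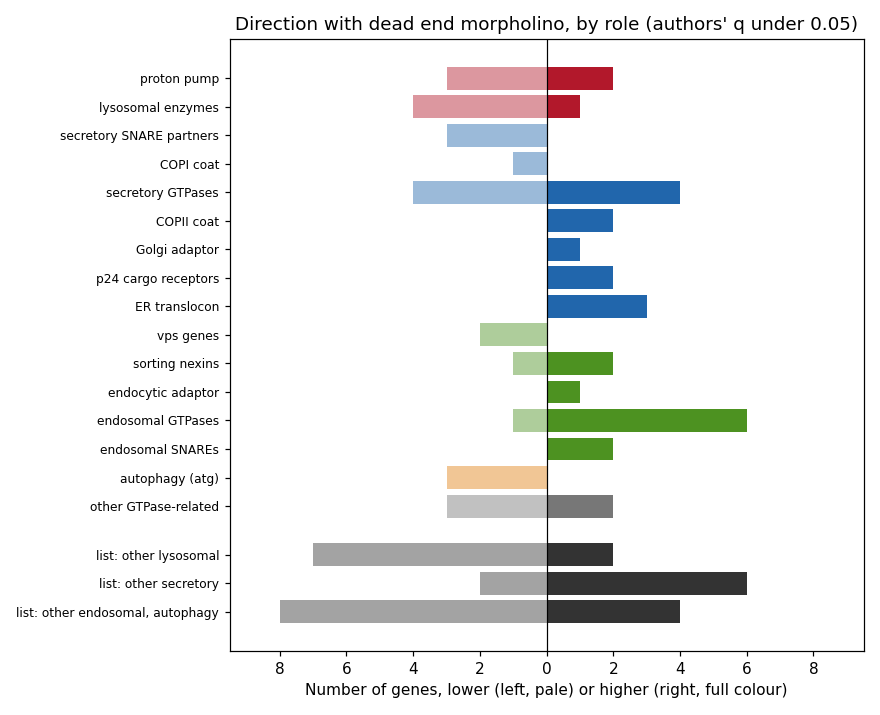
Number of members lower (pale bars to the left of 0) and higher (full bars to the right) with the dead end morpholino for each of the 16 roles, and, in grey at the bottom, for the other lysosomal, secretory, and endosomal or autophagy genes listed, all at the authors' q under 0.05. The Sec61 channel, COPII, p24, Golgi adaptor, endocytic adaptor and endosomal SNARE roles have bars to the right of 0 and none to the left. The COPI, secretory SNARE partner, vps and autophagy roles have bars to the left and none to the right. Each of these roles holds 1 to 3 members.

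Members of the secretory GTPase role were divided evenly, with 4 of 8 higher and 4 lower, beside 64.96% and 35.04% of all rows. The role follows gene names, and rab3gap2, among the 4 lower members, is no GTPase gene. Fewer of the GTPase genes themselves were thus lower than higher. The exocytic GTPase gene rab10 rose from 42.3 to 139 FPKM (3.30-fold, q = 0.00107) per the authors' deposited table. The gene rab18a, for a GTPase of the endoplasmic reticulum and lipid droplets, rose from 6.40 to 21.2 FPKM (3.31-fold, q = 0.00637) there. Of the Arf genes, whose products recruit coats at the Golgi, arf1 rose from 42.5 to 105 FPKM (2.46-fold) and arf4a from 11.1 to 23.97 FPKM (2.16-fold). On the other side, rab1bb, a paralog of the GTPase that acts between endoplasmic reticulum and Golgi, fell from 15.3 to 2.66 FPKM (5.74-fold, q = 0.0382) per the authors' deposited table. The Golgi GTPase gene rab33a fell from 9.36 to 1.81 FPKM (5.18-fold, q = 0.0103) and rab41 from 51.1 to 25.7 FPKM (1.99-fold, q = 0.0267) per the authors' deposited table. The gene rab3gap2, which encodes the noncatalytic subunit of a complex acting on Rab GTPases and is itself no GTPase, fell from 27.4 to 7.09 FPKM (3.86-fold, q = 0.00765) per the authors' deposited table.

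The secretory SNARE partners were lower for 3 of 3 members. The gene stxbp3, for a syntaxin-binding protein at the plasma membrane, fell from 26.1 to 7.95 FPKM (3.29-fold, q = 0.00259) per the authors' deposited table. The gene stxbp5b, which shares the syntaxin-binding name but encodes a tomosyn, a protein that restrains SNARE assembly, fell from 6.74 to 2.18 FPKM (3.10-fold, q = 0.0467) per the authors' deposited table. The SNARE gene snap29, which is counted here by its family but is also known for joining autophagosomes to lysosomes, fell from 29.1 to 11.5 FPKM (2.53-fold, q = 0.00381) per the authors' deposited table. The roles within the secretory branch thus differed. Of the 8 members of the Sec61, COPII, COPI and p24 roles 7 were higher, with a median change of 1.36 in log2(FPKM + 1). The 8 members of the GTPase role, rab3gap2 included, had a median of 0.039, and the 3 SNARE partners had a median of -1.28. The median of all rows was 1.17, and 64.96% of them were higher. With so few genes in a role and no test of these differences, they are a description only.

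Summed levels differed between the lysosomal and secretory branches in the same direction as the counts. The 10 lysosomal members summed to 1209 FPKM in controls and 797 FPKM with the dead end morpholino, and the 20 secretory members to 775 and 1530.5 FPKM. Within the lysosomal branch the 5 enzymes summed to 941 and 507 FPKM. The 5 proton pump members summed to 268 and 290 FPKM, slightly higher although 3 of them were lower. The ratio of the lysosomal to the secretory sum was 1.56 in controls and 0.521 with the dead end morpholino. A few genes carry these sums. Without ctsla and psap the lysosomal sum was 359 and 360 FPKM, hardly different between the groups, and without sec61g and sec61a1 the secretory sum was 465 and 708 FPKM. With these 4 genes left out, the ratio of the sums was 0.771 in controls and 0.508 with the dead end morpholino. The sum over all rows of the table was 2.02-fold higher with the dead end morpholino, against 1.97-fold higher for the secretory members and 1.52-fold lower for the lysosomal ones.

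**Figure D3:**
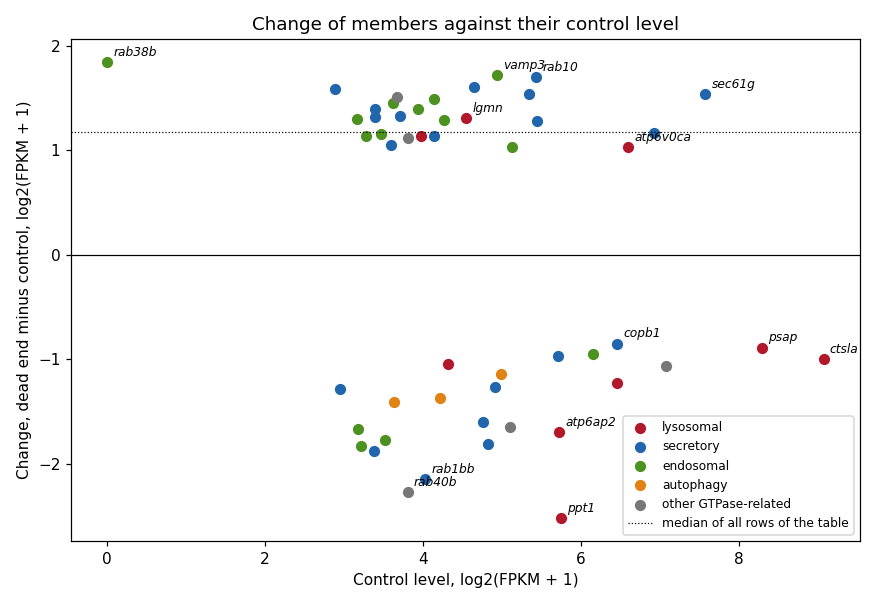
Change of 51 of the 53 members (dead end minus control, in log2(FPKM + 1)) against its control level in log2(FPKM + 1), coloured by branch. The dotted line is the median change of all rows, 1.17, and the solid line is 0. The abundant lysosomal genes ctsla and psap lie below 0 at the right, sec61g lies above 0, and the strongest falls, ppt1, rab40b and rab1bb, lie at lower control levels than these 3.

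Of the endosomal members, 6 of 7 GTPase genes and 2 of 2 SNARE genes were higher, beside 64.96% of all rows. The endosomal GTPase gene RAB21, matched only by the reference name table, fell and is not in this count. The early endosome GTPase genes rab5aa (33.8 to 70.2 FPKM, 2.08-fold) and rab5c (14.4 to 39.4 FPKM, 2.74-fold) were higher, with q = 0.0218 and q = 0.00107 in the authors' deposited table. The gene rab14l, a paralog of a GTPase between Golgi and endosomes, rose from 11.3 to 32.6 FPKM (2.88-fold). The gene arl8a, for a GTPase that moves lysosomes along microtubules, rose from 7.95 to 21.05 FPKM (2.65-fold, q = 0.0176) per the authors' deposited table. The gene rab38b, of a family known for lysosome-related pigment organelles, was listed at 0 in controls and at 2.59 FPKM with the dead end morpholino. The recycling endosome GTPase gene rab11ba was the 1 lower GTPase, at 70.03 and 35.7 FPKM (1.96-fold, q = 0.0365) per the authors' deposited table.

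The SNARE gene vamp3 of recycling endosomes rose from 29.7 to 100.2 FPKM (3.38-fold, q = 0.00107) and stx6, for a syntaxin between Golgi and endosomes, from 16.7 to 48.8 FPKM (2.92-fold, q = 0.00107) per the authors' deposited table. The small subunit gene of the endocytic adaptor, ap2s1, rose from 18.2 to 45.8 FPKM (2.52-fold, q = 0.00259) there. Its counterpart in the Golgi adaptor, ap1s1, had risen by a similar factor. Sorting nexins, which bind membrane lipids of endosomes, were split. The genes snx4 (10.03 to 23.6 FPKM, 2.35-fold) and snx33 (8.66 to 20.2 FPKM, 2.34-fold) were higher, and snx18b fell from 8.02 to 1.83 FPKM (4.39-fold, q = 0.0360) per the authors' deposited table. With changes centred on the median of all rows, snx4, snx33 and rab5aa turned to lower.

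Both vps members, which encode subunits of endosomal tethering complexes, fell, where 35.04% of all rows were lower. The gene vps8, for a subunit of the CORVET tether of early endosomes, went from 8.25 to 1.59 FPKM (5.18-fold, q = 0.00534) per the authors' deposited table. The gene vps50, for a subunit of the tether that serves recycling, went from 10.5 to 2.37 FPKM (4.43-fold, q = 0.00324) there. Their loci, at 227113 and 308046 bases, are the longest of all members. Early endosome genes thus moved both ways, with rab5aa and rab5c higher and vps8 lower.

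Autophagy members were lower for 3 of 3. The gene atg3, for the enzyme that attaches LC3 proteins to lipid, fell from 30.7 to 13.4 FPKM (2.30-fold, q = 0.0349), and atg4da, for a protease that trims and releases LC3 proteins, from 11.4 to 3.68 FPKM (3.10-fold, q = 0.00324) per the authors' deposited table. The gene atg9b, for the membrane protein that seeds the autophagosome, fell from 17.5 to 6.15 FPKM (2.84-fold, q = 0.00722) there. A list of 72 other endosomal and autophagy genes had 12 rows in the authors' deposited table, 8 lower and 4 higher, beside 35.04% of all rows lower. The largest falls in log2(FPKM + 1) were in the endocytic gene sh3gl1a (20.9 to 3.02 FPKM, 6.93-fold), the autophagy kinase gene ulk2 (12.3 to 1.99 FPKM, 6.20-fold) and the ESCRT gene chmp3 (34.96 to 10.1 FPKM, 3.45-fold). The low-level gene tecpr1a (3.25 to 0.526 FPKM) fell 6.19-fold, more than chmp3 as a plain ratio. The others that were lower were pik3r4, ambra1b, hgs and map1lc3b, the last an LC3 gene at 151 and 82.1 FPKM (1.84-fold, q = 0.0449) per the authors' deposited table. The genes that rose were epn2 (23.7 to 75.0 FPKM, 3.17-fold), hip1 (18.9 to 51.7 FPKM, 2.73-fold), stam2 (12.2 to 30.3 FPKM, 2.48-fold) and ehd1a (8.29 to 18.8 FPKM, 2.27-fold).

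The other GTPase-related members held a paralog pair with opposite changes. The genes rab40b and rab40c encode Rab proteins that recruit ubiquitin ligases. They had nearly the same control level, 13.0 and 13.1 FPKM. With the dead end morpholino rab40b fell to 1.89 FPKM (6.88-fold, q = 0.0253), the largest fall of all members as a ratio, while rab40c rose to 29.4 FPKM (2.25-fold, q = 0.0169) per the authors' deposited table. Centred on the median of all rows, rab40c was lower too. The Golgi GTPase gene arl5a fell from 33.2 to 9.88 FPKM (3.36-fold, q = 0.0187), and arl3, for a GTPase of cilia, rose from 11.8 to 35.4 FPKM (3.01-fold, q = 0.00259) per the authors' deposited table. The gene arl14ep, which encodes an effector of an Arl protein and not a GTPase, fell from 134 to 63.6 FPKM (2.11-fold, q = 0.0215) per the authors' deposited table and was the 4th most abundant member in controls.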

How the data were processed

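Germ cells were sorted on EGFP, and poly-A libraries were made with a directional kit, per the labels' protocols. Per the submitters' processing notes, the tools included Cuffdiff, Cufflinks 2.2.1, STAR 2.5.2b and cutadapt 1.10, with the builds GRCz10 and Zv9 in roles not stated. Positions were taken as GRCz10, since the largest on chromosome 4 (74754136) exceeds that chromosome's length in Zv9. The authors deposited 1 FPKM value per group, per the file headers, with a log2 fold change, a test statistic (a score, not turned into an error here), a p-value and a q-value. The authors' smallest p-value is 5e-05.

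No test of the groups was run, since the deposited FPKM values hold 1 value per group. Folds are plain ratios of FPKM, and medians use log2(FPKM + 1), which understates changes of low genes. Each member took the first matching role of a fixed set of name patterns. All lysosomal members were to be named, with up to 3 rises and 3 falls of each other role and list. In practice 51 of 53 are named, and the other 2 are not reported here beyond their part in counts, medians and sums. Members, roles and lists were chosen with earlier results of these data known. A name table matched 2408 of 2477 identifiers and 52 of 53 members. It gave another symbol than the deposited one for 11 members, and roles followed the deposited names. The labels name no separate clutches for the 2 libraries of each group, so the authors' q may measure technical spread. Alternatives were other q limits, level minimums, pseudocounts, scalings and role sets. The counting was tested on simulated data. Python 3.11.15 with pandas 2.3.3 was used. Sequences were not analysed here.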

Additional observations from a re-analysis of the deposited data

How the results depend on the processing

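No paired analysis was possible because the deposited table holds 1 value per group, and for the same reason no library could be left out. At q under 0.01, 17 members were higher and 10 lower, beside 42.6% and 18.1% of all rows. Among these members, 1 lysosomal was higher and 3 lower, 9 secretory were higher and 3 lower, and 6 endosomal were higher and 2 lower. With both groups at the same summed FPKM, the median of all rows moved by -0.97 in log2(FPKM + 1), and the medians were -1.96 for lysosomal, 0.15 for secretory and 0.27 for endosomal members. Centred on the median of all rows, they were -2.19, -0.027 (a change of sign for secretory members) and 0.086, with 1 lysosomal member higher and 7 endosomal members lower. The table holds only called genes, most of them higher, so neither its median nor its summed FPKM is a neutral point. A pseudocount of 5 gave medians of 1.02 for secretory and 0.95 for endosomal members. Without proton pump subunits, 1 lysosomal member was higher and 4 lower. Restricted to channel, COPII, COPI and p24 genes, 7 secretory members were higher and 1 lower, with a median of 1.36. In alternatives added after seeing the data, the endosomal median was 1.16 with the rows that match by reference name, and 1.21 with snap29 counted there. With the rows that match by reference name, 4 lysosomal members were higher and 7 lower, with a median of -0.997. A level minimum of 1 FPKM kept all 53 members and one of 5 FPKM kept 52, so neither could move the counts much. With these minimums or a pseudocount of 0.1, no median moved by 0.1 or more. A pseudocount cannot change the direction of a member, so it is no check of direction. Of the 51 named members, 25 missed q under 0.01.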

Other observations

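A further 6 rows of the authors' deposited table belong to these families by the reference name table. They carry capitals, a clone name or no name in the gene column, and entered the counts above only where this is said. The cathepsin gene ctslb.4, deposited under a clone name, rose from 22.3 to 96.03 FPKM (4.31-fold, q = 0.00107) per the authors' deposited table, against the fall of ctsla. Cathepsin L genes of its subfamily are known in zebrafish as hatching gland genes, and the hatching gland marker he1a rose from 69.8 to 308 FPKM in the same table. Whether the rise of ctslb.4 comes from such cells was not tested. The Arf gene ARF5 rose from 85.2 to 171 FPKM (2.00-fold), as arf1 and arf4a had.

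The other 4 rows fell in the authors' deposited table. The gene STXBP6, whose product binds syntaxin, went from 44.3 to 10.2 FPKM (4.34-fold). The endosomal sorting gene VPS35L went from 11.9 to 2.85 FPKM (4.18-fold), beside vps8 and vps50. The endosomal GTPase gene RAB21 went from 29.6 to 13.0 FPKM (2.28-fold), and the autophagy gene ATG2A, for a lipid transfer protein, from 15.6 to 7.59 FPKM (2.05-fold). With these rows, the atg and vps genes found in the table were all lower, beside 35.04% of all rows. These are few genes, and the pattern was not tested.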
